A study of Mus musculus with 12 samples.

Results

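The genes of amino acid catabolism and the urea cycle were taken as 47 listed symbols of the gene table, out of 23849 symbols, and all 47 were among the 9806 genes tested. They comprise 8 genes of the urea cycle, 4 of tyrosine breakdown, 5 of tryptophan breakdown, 7 of glycine and serine metabolism, 5 of glutamine use and transamination, 2 of proline, 4 of branched-chain amino acid and 9 of methionine and sulfur metabolism, and 3 of histidine breakdown. The liver RNA came from 12 male mice on a C57BL/6J background, 8 weeks old per the labels, all on a high-fat diet, so that no group had a control diet. The paper states that this diet began before the treatment. They were given vehicle or Libramed, a gel-forming fiber product, over 2 weeks, and livers were collected at ZT0 or ZT12, the times of lights on and lights off. Per the methods, both were given daily by oral gavage shortly before lights off. ZT12 follows soon after this hour of dosing, so time of day and time since dosing cannot be told apart. With 3 mice per group, the 4 groups were vehicle ZT0, vehicle ZT12, Libramed ZT0 and Libramed ZT12. Values are FPKM, fragments per kilobase of transcript, scaled to the number of mapped fragments. In these bulk samples, fewer hepatocytes and less RNA per hepatocyte cannot be told apart.

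The liver strips amino acids of their nitrogen and passes the carbon skeletons to glucose, ketone or fat synthesis. Transaminases and deaminases collect the nitrogen as ammonia and aspartate, and the urea cycle, split between mitochondria and cytosol, turns both into urea for excretion. Methionine follows a route of its own, through S-adenosylmethionine and homocysteine to cysteine and taurine. Many of these enzymes are known to follow feeding, fasting, glucocorticoids and glucagon, and most are made chiefly by hepatocytes.

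All of the genes were well expressed. Their means over the 12 mice ran from 18.29 FPKM for Sdsl to 2049 FPKM for Gnmt, with a median of 172 FPKM against 7.79 FPKM over all genes tested, and 35 of the 47 were in the highest 10% of the genes tested. The 4 genes with the highest means were Gnmt, Hpd, Bhmt and Cdo1. The 47 genes held 2.49, 2.17 and 2.38% of the summed FPKM of the vehicle ZT0 libraries, 2.12, 2.47 and 2.29% at vehicle ZT12, 2.25, 2.3 and 2.48% at Libramed ZT0, and 2.5, 2.54 and 2.59% at Libramed ZT12. The Libramed ZT12 libraries were thus above all the others, but only just above the highest library of each other group.

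Libraries of the same group correlated at r = 0.9711 to 0.9851 over genes, and the first principal component, with 33% of the variance, separated ZT0 from ZT12. All 7 evening clock genes listed were higher, and all 3 tested morning genes lower, at ZT12 in each treatment. Of 7 hepatocyte markers listed, 6 were in the table and Alb was listed at 0 in all 12 libraries, while the summed level of the others was 31200 to 46100 FPKM. The 6 endothelial markers summed to 24.8 to 40.2 FPKM at ZT0 and 12.7 to 21.9 FPKM at ZT12, and the 6 stellate cell markers to 32.6 to 67.1 FPKM and 24.5 to 46.7 FPKM. Of 5 adipocyte markers, 4 stayed under 1 FPKM in every library, and Cfd, the other, read 7.97, 2.85 and 7.1 FPKM at vehicle ZT0, 11.4, 42.8 and 26.1 at vehicle ZT12, 0.613, 4.99 and 0.309 at Libramed ZT0 and 2.74, 9.47 and 11.2 at Libramed ZT12, and rose with time in the fit of both treatments (1.83 ± 0.44, adjusted p = 0.00857). Of 7 pancreas markers, 5 stayed under 1 FPKM. The 6 blood markers in the table summed to 229 to 717 FPKM in vehicle and 365 to 668 FPKM in Libramed mice. The macrophage sums ran from 21 to 52.9 FPKM. The part of the endothelial, stellate and Cfd shifts in the changes with time below was not tested.

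Between ZT0 and ZT12 the genes split into a set that was higher in the evening and a set that was lower. In vehicle mice, 7 of the 47 genes rose (5.62% of all genes tested did) and 9 fell (4.78% of all genes), by limma at a Benjamini-Hochberg adjusted p under 0.05. In Libramed mice, 11 rose (7.00% of all genes) and 4 fell (5.36% of all genes), and under quantile normalization 10 rose and 6 fell. With both treatments in 1 fit of 12 libraries, 23 rose (15.9% of all genes) and 9 fell (13.8% of all genes), and under quantile normalization 17 rose and 11 fell. The median log2 change of the 47 genes was 0.13 in vehicle and 0.25 in Libramed mice, against 0.01 over all genes in both, and under quantile normalization it was 0.04 and 0.08. Of the 16 genes called in vehicle mice and the 15 called in Libramed mice, 10 were called in both, which is 62.5% of the former and 66.7% of the latter. Over all genes, 534 were called in both, which is 52.4% of the 1020 called in vehicle mice and 44.1% of the 1212 called in Libramed mice. All 10 had the same direction in both: Asl, Afmid, Gpt2, Prodh, Ahcy and Uroc1 rose, and Cbs, Agxt, Gldc and Amt fell. The vehicle count fell to 5 without vehicle ZT0 replicate 3, and to 10, 6 and 8 without vehicle ZT12 replicates 1, 2 and 3, each leaving 5 libraries in the fit. Over all genes, the 1020 calls fell to 279, 532, 226 and 277 in the same 4 fits. Calls that held under every alternative setting and with any library left out were those of Afmid, Agxt and Cbs in vehicle mice, and of Afmid, Ahcy, Amt, Asl, Cbs, Gldc, Gpt2, Sds and Uroc1 in Libramed mice. In the fit of both treatments 24 of the 32 calls held. The calls of Aldh4a1, Bckdha, Cdo1, Hpd and Sdsl held under 6, 9, 9, 9 and 10 of 19 alternatives, and those of Ftcd, Got2 and Gstz1 under 18.

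**Figure D1:**
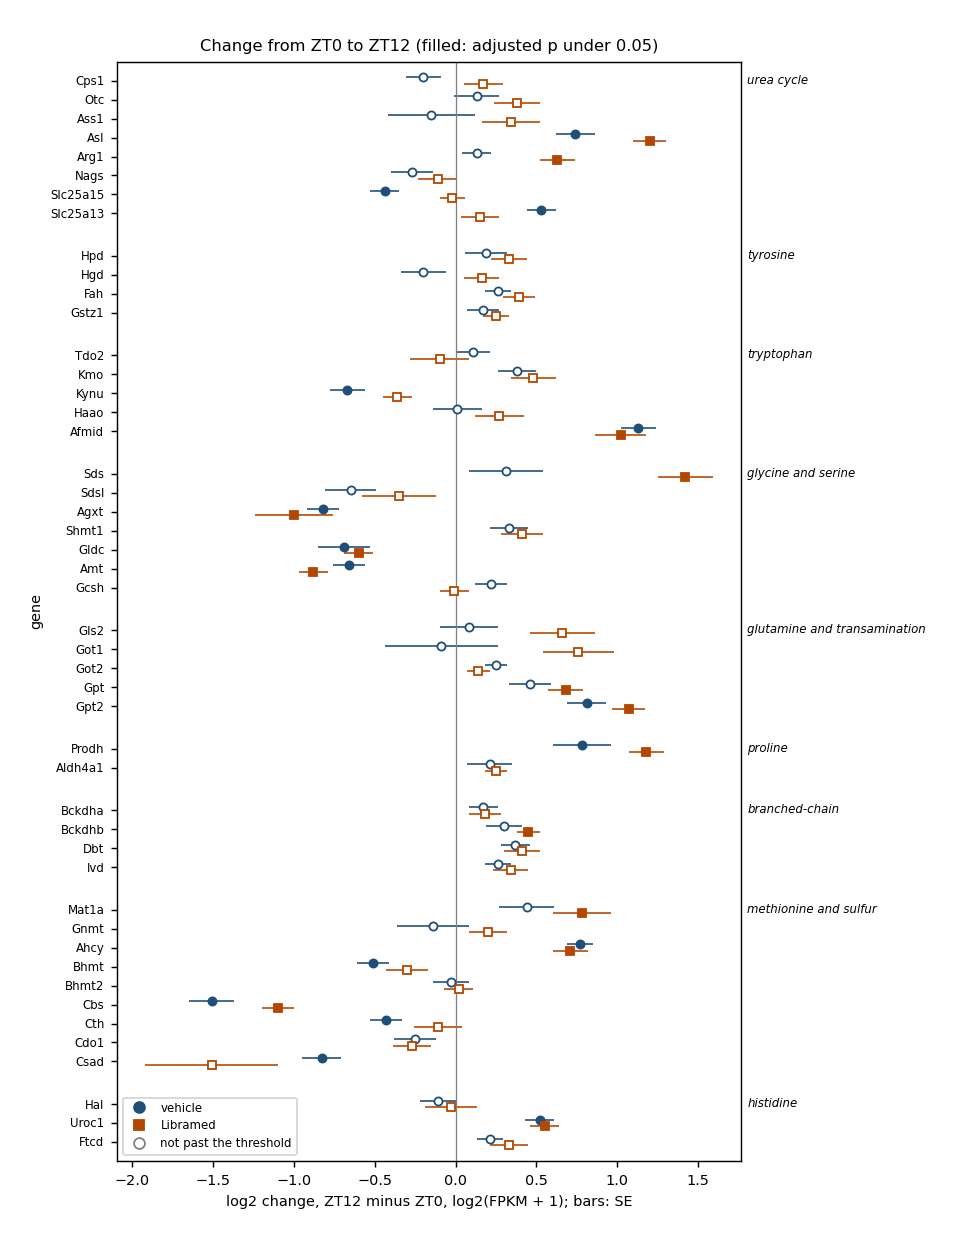
Change from ZT0 to ZT12 of the 47 genes, grouped by pathway, as the log2 difference of log2(FPKM + 1) with its SE, in vehicle (circles) and Libramed mice (squares); filled symbols have an adjusted p under 0.05. Cbs in vehicle mice and Csad in Libramed mice lie farthest to the left at -1.51, the latter as an open symbol, and Sds in Libramed mice farthest to the right at 1.42.

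Promoter sequences from RefSeq (GRCm38.p6, the 250 bases before each gene's start) were matched for 35 of the 47 genes and for 7413 of the genes tested. Of the 10 genes called at both treatments, 9 had an entry, and the 4 whose window holds no annotated exon are shown because their mRNA passed the test of time in each treatment. Each reads 5′ to 3′ on the strand of its gene, from the farthest base to the last base before the start, and capitals mark a motif searched for.
Agxt, lower at ZT12, chr1:93134990-93135239, plus strand: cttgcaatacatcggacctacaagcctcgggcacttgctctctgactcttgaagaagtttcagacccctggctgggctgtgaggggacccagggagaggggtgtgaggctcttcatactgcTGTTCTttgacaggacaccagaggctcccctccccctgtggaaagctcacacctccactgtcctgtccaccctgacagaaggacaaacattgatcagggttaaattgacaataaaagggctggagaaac
Gldc, lower at ZT12, chr19:30175442-30175691, minus strand: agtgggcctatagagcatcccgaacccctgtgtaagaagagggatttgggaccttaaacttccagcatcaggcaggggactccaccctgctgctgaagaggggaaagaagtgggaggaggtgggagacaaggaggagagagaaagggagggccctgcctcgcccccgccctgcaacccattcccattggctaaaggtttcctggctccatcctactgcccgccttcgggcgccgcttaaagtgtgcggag
Ahcy, higher at ZT12, chr2:155074498-155074747, minus strand: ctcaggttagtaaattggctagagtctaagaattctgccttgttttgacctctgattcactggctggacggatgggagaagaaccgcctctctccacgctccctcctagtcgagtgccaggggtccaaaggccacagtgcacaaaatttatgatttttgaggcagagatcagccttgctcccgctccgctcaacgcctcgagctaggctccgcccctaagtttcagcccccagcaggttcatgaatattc
Gpt2, higher at ZT12, chr8:85492326-85492575, plus strand: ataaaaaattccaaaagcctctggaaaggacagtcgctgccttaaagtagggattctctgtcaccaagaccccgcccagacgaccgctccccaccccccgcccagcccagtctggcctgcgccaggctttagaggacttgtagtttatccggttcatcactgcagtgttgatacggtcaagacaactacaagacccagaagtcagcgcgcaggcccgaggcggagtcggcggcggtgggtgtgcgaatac

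Agxt, the 1 sequence of these with a match, holds a glucocorticoid receptor half-site (AGAACA, here read from the other strand), whose first base is at -129 from the gene's start. The canonical E-box CACGTG, the sequence that CLOCK and BMAL1 bind, was in the windows of 3 of 35 genes (8.57%, against 8.89% of all promoters). These 3 sites are shown, in capitals with 12 bases on each side, because the 3 genes did not share a course over the day. Cbs fell, Slc25a13 rose in vehicle mice, and Ass1 was not called for time. The Ass1 site lies inside the gene as GENCODE annotates it, and the other two lie before their genes.
Cbs, fell at ZT12 in both treatments, chr17:31637417-31637446, minus strand: cctcacgacaaaCACGTGttagacggcaga
Slc25a13, rose at ZT12 in vehicle mice, chr6:6217281-6217310, minus strand: cacagtctgagtCACGTGtcctggcccctc
Ass1, called at neither treatment for time, chr2:31470222-31470251, plus strand: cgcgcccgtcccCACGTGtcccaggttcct

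For the other motifs, each searched on both strands, the counts were small. The half-site TGACG of cAMP response elements was in 5 windows (14.3%, against 28.6% of all promoters), the glucocorticoid half-site in 3 (8.57% against 10.3%), the C/EBP-type site TTGCNNCAA in 1 (2.86% against 1.3%), and the D-box TTATGTAA in 0 (against 0.513%). A TATA box (TATAAA) was in 5 windows, those of Ftcd, Got2, Hal, Hgd and Tdo2 (14.3% against 6.29%). These are matches of letters in a short window and no more.

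Libramed was compared with vehicle at each time, with genes called at an unadjusted p because none passed after adjustment. At ZT12, 13 of the 47 genes were higher with Libramed at an unadjusted p under 0.05 (3.07% of all genes were) and 0 were lower (3.67% of all genes were). At ZT0, 1 was higher (3.42% of all genes) and 2 were lower (5.81% of all genes), and under quantile normalization 3 were higher and 2 lower. None passed an adjusted p of 0.05 at either time, where limma called 0 of 9806 genes. A test in the manner of Cyber-T had 4 of the 47 genes at ZT12 and 2 at ZT0 with an unadjusted p under 0.05. Over all 9806 genes it had 281 at ZT12 and 433 at ZT0. After adjustment it called 0 of the 47 genes, and 1 of all genes at ZT12 and 3 at ZT0. The median log2 difference of the 47 genes at ZT12 was 0.16, against -0.01 over all genes, with 37 of 47 above 0. It was 0.01 at ZT0, against -0.02 over all genes, with 24 of 47 above 0. Over both times in 1 fit, 7 were higher (3.82% of all genes) and 0 lower (6.28% of all genes), all 7 without an adjusted p under 0.05, and 11 were higher under median-ratio scaling or quantile normalization. Beside these, the summed level of the hepatocyte markers at ZT12 was 31200 to 34900 FPKM in vehicle and 34900 to 42000 FPKM in Libramed mice. Most of that sum was Apoa1 (0.22 ± 0.13 between treatments). Of the 5 hepatocyte markers tested, at ZT12 0 were higher and 2 were lower at an unadjusted p under 0.05 (3.07% and 3.67% of all genes). These 2 were Apob (-0.31 ± 0.07) and Ttpa (-0.26 ± 0.10), and the median of the 5 was 0.02. At ZT0 the summed level was 32300 to 36000 FPKM in vehicle and 37600 to 46100 FPKM in Libramed mice. There 1 of the 5 was higher and 0 were lower (3.42% and 5.81% of all genes). The adipocyte marker Cfd was lower with Libramed at ZT0 (-1.49 ± 0.59) and at ZT12 (-1.65 ± 0.58), and the 3 blood markers tested had median differences of 0.52 and 0.45. The part of these markers in the differences was not tested. The 13 genes at ZT12 were Cps1, Ass1, Asl, Arg1, Hpd, Afmid, Sds, Agxt, Gpt, Prodh, Bckdhb, Cbs and Ftcd. Their number fell to 7 without vehicle ZT12 replicate 1 and to 8 without Libramed ZT12 replicate 1 or replicate 3, and Ass1, Asl and Sds were the 3 genes past the threshold under every alternative. Over all genes, the ZT12 count of 661 became 595, 557 and 889 in these fits. The count of 3 at ZT0 became 6 without vehicle ZT0 replicate 2, 1 without vehicle ZT0 replicate 3, 7 without Libramed ZT0 replicate 2 and 5 without Libramed ZT0 replicate 3. Over all genes, the ZT0 count of 905 became 732, 692, 764 and 525 in the same order. The count of 7 over both times became 12 without vehicle ZT0 replicate 1 or Libramed ZT0 replicate 2, and 4 without Libramed ZT0 replicate 3. Over all genes, the count of 991 over both times was 1125, 991 and 698 in these fits.

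**Figure D2:**
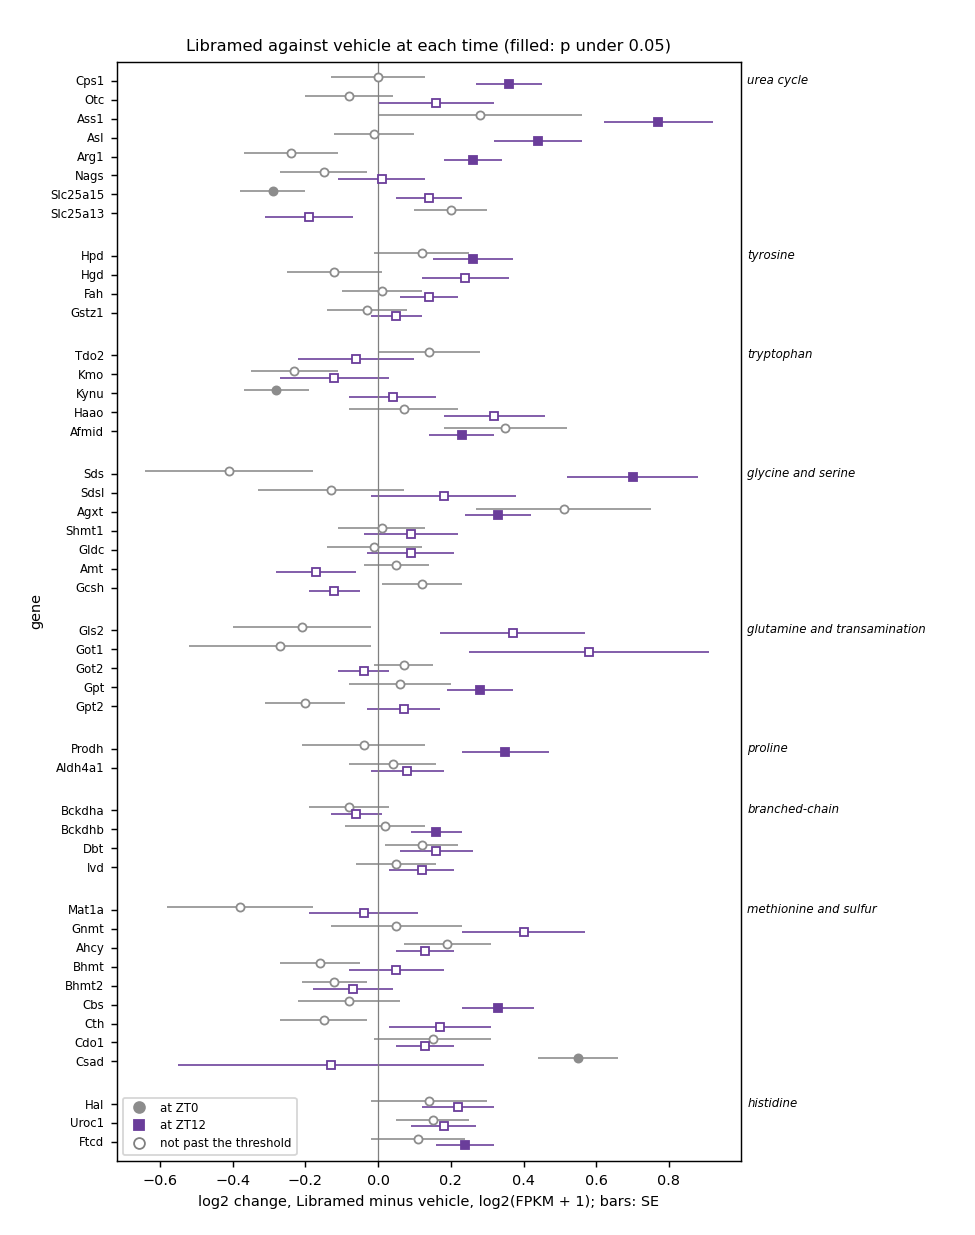
Difference between Libramed and vehicle mice for the 47 genes, as the log2 difference of log2(FPKM + 1) with its SE, at ZT0 (circles) and ZT12 (squares); filled symbols have an unadjusted p under 0.05, and none has an adjusted p under 0.05. At ZT12 all 13 filled squares lie to the right of 0, from 0.16 for Bckdhb to 0.77 for Ass1.

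The libraries of a group differed together over these genes. In the vehicle ZT12 group, replicate 1 was the lowest of 3 for 31 of the 47 genes and replicate 2 the highest for 35. In the vehicle ZT0 group, replicate 1 was the highest for 30 and replicate 2 the lowest for 35, and in the Libramed ZT0 group replicate 2 was the lowest for 31 and replicate 3 the highest for 31. The Libramed ZT12 libraries were more even, the highest being replicate 3 for 23 genes and replicate 1 for 20. The median deviation of a library from its group over the 47 genes ran from -0.119 to 0.138 on the log2 scale, while over all genes it ran from -0.016 to 0.026. The median difference of 0.16 between treatments at ZT12 is to be read beside these deviations of single libraries.

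**Figure D3:**
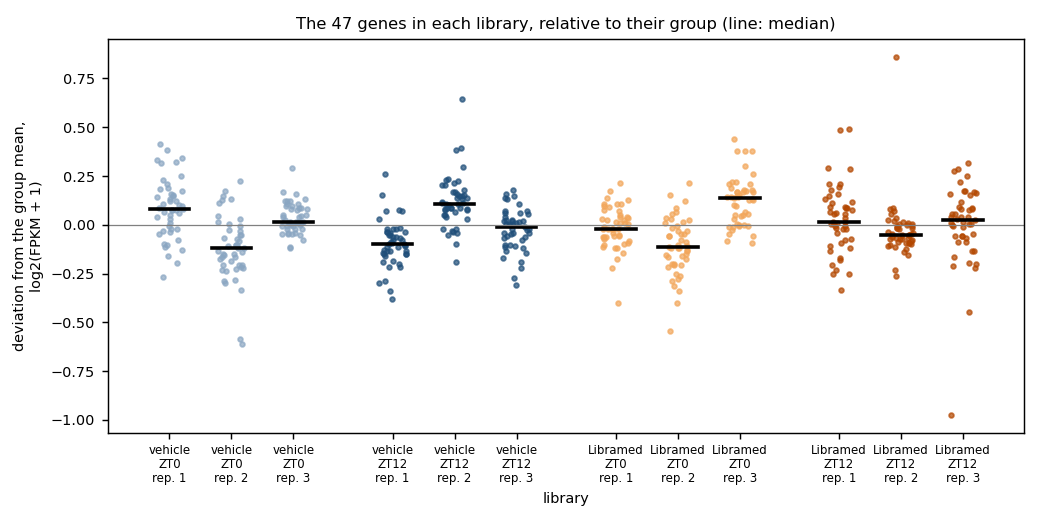
Deviation of each of the 47 genes from its group mean in each of the 12 libraries, on the log2(FPKM + 1) scale; each point is 1 gene and each line the median of the 47. The medians run from -0.119 in vehicle ZT0 replicate 2 to 0.138 in Libramed ZT0 replicate 3.

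Whether the change over the day differed between the treatments was tested as the interaction of time and treatment, in 1 fit of 12 libraries. It was positive at an unadjusted p under 0.05 for 6 of the 47 genes (3.82% of all genes) and negative for 1 (2.80% of all genes), and under quantile normalization for 5 and 2. None passed after adjustment (smallest adjusted p = 0.519), where limma called 0 of 9806 genes. The 7 genes were Arg1, Slc25a15, Sds, Asl, Slc25a13, Cbs and Cps1, of which 5 belong to the urea cycle, and all but Slc25a13 were positive. Arg1, Slc25a15, Sds and Asl kept an unadjusted p under 0.05 under every alternative. Leaving out replicate 2 of vehicle ZT0 made the count of 7 a count of 12, as did leaving out replicate 2 of vehicle ZT12. Over all genes, the count of 650 became 686 and 593 in these fits. The count of 7 became 4 when replicate 1 of Libramed ZT0 or of Libramed ZT12, or replicate 3 of vehicle ZT0 or of vehicle ZT12, was dropped. Over all genes, those fits had 543 to 665. In the accounts of single genes below, differences between treatments and interactions are given with their adjusted p.

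The 8 urea cycle genes did not move as a block. Asl alone rose in both treatments, Arg1 rose in Libramed mice, and in vehicle mice the mitochondrial carrier Slc25a15 fell while the carrier Slc25a13 rose. At ZT12, Cps1, Ass1, Asl and Arg1 were higher with Libramed at an unadjusted p under 0.05 (3.07% of all genes were), and at ZT0 none of the 8 was (3.42% of all genes).

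Cps1, the mitochondrial enzyme that makes carbamoyl phosphate from ammonia, is at chr1:67123026-67231259 (mm10, plus strand). It read 465, 426 and 498 FPKM at vehicle ZT0, 378, 448 and 386 at vehicle ZT12, 444, 413 and 532 at Libramed ZT0 and 551, 484 and 519 at Libramed ZT12. The ZT12 groups did not overlap between treatments, Libramed being the higher, while ZT0 and ZT12 overlapped in each treatment. The log2 difference between treatments was 0.36 ± 0.09 (SE) at ZT12 (adjusted p = 0.729) and 0.00 ± 0.13 at ZT0, and the interaction was 0.37 ± 0.16 (adjusted p = 0.732). Nags, which makes the activator that Cps1 requires, read 83, 62 and 71.8 FPKM at vehicle ZT0, 54.2, 65.3 and 59.6 at vehicle ZT12, 66.5, 67.2 and 60.6 at Libramed ZT0 and 69.3, 60.1 and 51.5 at Libramed ZT12. Its ranges overlapped in all 4 comparisons of groups, with no p under 0.05. Otc, which joins carbamoyl phosphate to ornithine, ranged from 149 to 260 FPKM and was not called in any comparison.

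Ass1, which condenses citrulline with aspartate, had the largest difference between treatments. Its values were 223, 111 and 188 FPKM at vehicle ZT0 and 136, 185 and 136 at vehicle ZT12, and 188, 170 and 265 at Libramed ZT0 and 295, 234 and 248 at Libramed ZT12. The 3 Libramed mice were above the 3 vehicle mice at ZT12, and the groups overlapped at ZT0, where vehicle replicate 2 was the lowest of all 12 libraries. At ZT12 Ass1 was 1.71-fold higher with Libramed (log2 difference 0.77 ± 0.15, adjusted p = 0.7), at ZT0 the log2 difference was 0.28 ± 0.28 (adjusted p = 0.797), and over both times it was 0.53 ± 0.18 (adjusted p = 0.378). Time of day gave -0.15 ± 0.27 in vehicle and 0.34 ± 0.18 in Libramed mice, neither past the threshold.

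Asl, which cleaves argininosuccinate to arginine and fumarate, is at chr5:130011258-130029247 (mm10, minus strand). It read 412, 359 and 388 FPKM at vehicle ZT0 against 569, 755 and 629 at vehicle ZT12, and 389, 344 and 417 at Libramed ZT0 against 951, 846 and 843 at Libramed ZT12. Every ZT12 library was above every ZT0 library, and every Libramed ZT12 library above every vehicle ZT12 library, while the ZT0 groups overlapped. Asl rose 1.68-fold in vehicle mice (log2 change 0.74 ± 0.12, adjusted p = 0.0166) and 2.29-fold in Libramed mice (1.20 ± 0.10, adjusted p = 0.00174). The interaction was 0.45 ± 0.16 (adjusted p = 0.663) and the difference between treatments at ZT12 0.44 ± 0.12 (adjusted p = 0.729).

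Arg1, the arginase that releases urea, read 971, 874 and 937 FPKM at vehicle ZT0, 1002, 1077 and 967 at vehicle ZT12, 733, 721 and 913 at Libramed ZT0 and 1270, 1206 and 1181 at Libramed ZT12. Its day and evening values overlapped in vehicle mice and were apart in Libramed mice, in which the 3 evening values were the highest of all 12. Arg1 rose 1.55-fold in Libramed mice (log2 change 0.63 ± 0.11, adjusted p = 0.0156), against 0.13 ± 0.09 in vehicle mice (adjusted p = 0.41), and the interaction of 0.50 ± 0.14 had the smallest p among the 47 genes (adjusted p = 0.519).

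Slc25a15, the ornithine carrier of the mitochondrion, read 89.6, 92.6 and 102 FPKM at vehicle ZT0, 66.2, 75.1 and 67.4 at vehicle ZT12, 79.7, 75.8 and 77.2 at Libramed ZT0 and 71.1, 76.2 and 83.1 at Libramed ZT12. The vehicle ZT0 group stood above all other groups. Slc25a15 fell by 0.44 ± 0.09 on the log2 scale in vehicle mice (adjusted p = 0.03) and differed by -0.02 ± 0.08 in Libramed mice, with an interaction of 0.43 ± 0.12 (adjusted p = 0.519) and a difference between treatments at ZT0 of -0.29 ± 0.09 (adjusted p = 0.482). Slc25a13, the aspartate and glutamate carrier, had the opposite pattern. It rose 1.45-fold in vehicle mice (log2 change 0.53 ± 0.09, adjusted p = 0.0178), from 46.2 to 55.1 FPKM at ZT0 to 70.4 to 75.5 FPKM at ZT12, and changed by 0.15 ± 0.12 in Libramed mice (adjusted p = 0.488), with an interaction of -0.39 ± 0.16 (adjusted p = 0.717). Of 4 further urea cycle genes tested, 1 rose and 1 fell in vehicle mice (5.62% and 4.78% of all genes). In Libramed mice 0 rose and 0 fell (7.00% and 5.36% of all genes). In vehicle mice the arginine transporter Slc7a2 rose (0.62 ± 0.10, adjusted p = 0.0173) and the ornithine aminotransferase Oat fell (-0.48 ± 0.11, adjusted p = 0.0413).

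**Figure D4:**
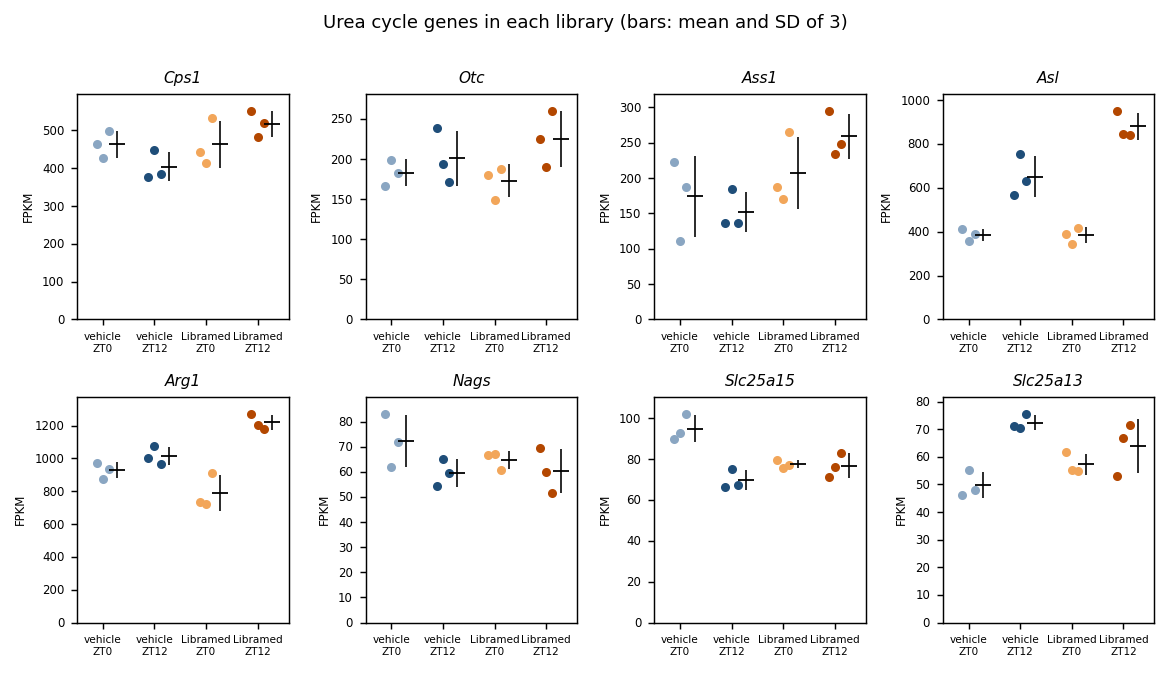
FPKM of the 8 urea cycle genes in each library of the 4 groups, with the mean and SD of 3 mice; each axis starts at 0. In the panels of Asl and Arg1, the Libramed ZT12 libraries (843 to 951 FPKM and 1181 to 1270 FPKM) lie above all other libraries.

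The route from methionine to cysteine and taurine held the largest fall of the 47 genes, that of Cbs. Of its 9 genes, 1 rose and 4 fell in vehicle mice (5.62% and 4.78% of all genes). In Libramed mice, 2 rose and 1 fell (7.00% and 5.36% of all genes). The genes that rose were Ahcy in both treatments and Mat1a in Libramed mice, and those that fell were Cbs in both and Bhmt, Cth and Csad in vehicle mice.

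Cbs, which joins homocysteine to serine as the first step of transsulfuration, is at chr17:31608894-31637238 (mm10, minus strand). Its values were 358, 275 and 344 FPKM at vehicle ZT0 and 106, 130 and 104 at vehicle ZT12, and 288, 289 and 343 at Libramed ZT0 and 149, 140 and 136 at Libramed ZT12. No evening value came near a morning value, and the 3 Libramed evening values were all above the 3 vehicle evening values. Cbs fell by 1.51 ± 0.14 on the log2 scale in vehicle mice (adjusted p = 0.00334) and by 1.10 ± 0.10 in Libramed mice (adjusted p = 0.00184), the largest fall of the 47 genes in the fit of both treatments, with an interaction of 0.41 ± 0.17 (adjusted p = 0.725) and a difference between treatments at ZT12 of 0.33 ± 0.10 (adjusted p = 0.729). Cth, the next enzyme of the route, fell by 0.43 ± 0.10 in vehicle mice (adjusted p = 0.0467), and the change was -0.11 ± 0.15 in Libramed mice (adjusted p = 0.682).

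Csad makes hypotaurine, the precursor of taurine. It read 82.5, 78.5 and 92.5 FPKM at vehicle ZT0, 48.1, 41.2 and 52.7 at vehicle ZT12, 118, 138 and 117 at Libramed ZT0 and 46.7, 78.8 and 21.4 at Libramed ZT12. The Libramed ZT0 libraries were the highest of all, and the Libramed ZT12 libraries were spread more widely than any other group, with replicate 2 near the vehicle ZT0 values and replicate 3 the lowest of 12. Csad fell by 0.83 ± 0.12 in vehicle mice (adjusted p = 0.0101), and the log2 change in Libramed mice was -1.51 ± 0.41 (adjusted p = 0.0556). At ZT0 it was 1.47-fold higher with Libramed (log2 difference 0.55 ± 0.11, adjusted p = 0.309), the smallest p of the 47 genes in that comparison. Cdo1, the cysteine dioxygenase that precedes Csad, read 1197, 962 and 1267 FPKM at vehicle ZT0, 888, 978 and 994 at vehicle ZT12, 1080, 1269 and 1453 at Libramed ZT0 and 1036, 1040 and 1049 at Libramed ZT12. Its evening values overlapped the morning values in vehicle mice and lay just below them in Libramed mice, and it fell in the fit of both treatments (-0.26 ± 0.08, adjusted p = 0.0341).

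Mat1a, the liver synthase of S-adenosylmethionine, read 983, 716 and 801 FPKM at vehicle ZT0, 914, 1262 and 1232 at vehicle ZT12, 481, 738 and 726 at Libramed ZT0 and 1201, 1121 and 978 at Libramed ZT12. Day and evening overlapped in vehicle mice and were apart in Libramed mice, where replicate 1 of ZT0 was the lowest of 12 libraries. Mat1a rose 1.72-fold in Libramed mice (log2 change 0.78 ± 0.18, adjusted p = 0.0341), against 0.44 ± 0.17 in vehicle mice (adjusted p = 0.151). Gnmt, which disposes of surplus S-adenosylmethionine with glycine, had the highest level of the 47 genes. It read 2475, 1606 and 1902 FPKM at vehicle ZT0, 1366, 2048 and 2018 at vehicle ZT12, 2023, 1824 and 2286 at Libramed ZT0 and 2449, 2459 and 2133 at Libramed ZT12. The vehicle groups overlapped over a wide range, the Libramed ZT12 values lay above the vehicle ZT12 values, and no comparison had a p under 0.05 (adjusted p = 0.729 between treatments at ZT12).

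Ahcy splits S-adenosylhomocysteine into homocysteine and adenosine. It read 130, 125 and 122 FPKM at vehicle ZT0, 200, 228 and 218 at vehicle ZT12, 151, 123 and 158 at Libramed ZT0 and 242, 225 and 241 at Libramed ZT12. All 6 evening values exceeded all 6 morning values by far. Ahcy rose 1.7-fold in vehicle mice (log2 change 0.77 ± 0.08, adjusted p = 0.00536) and 1.64-fold in Libramed mice (0.71 ± 0.11, adjusted p = 0.00975). Bhmt, which returns homocysteine to methionine with betaine, read 1227, 1480 and 1419 FPKM at vehicle ZT0, 951, 933 and 1016 at vehicle ZT12, 1207, 1283 and 1186 at Libramed ZT0 and 849, 987 and 1185 at Libramed ZT12. Its evening values were the lower in both treatments without overlap, in Libramed mice by a narrow margin, and Bhmt fell by 0.51 ± 0.10 in vehicle mice (adjusted p = 0.0305), while the change of -0.30 ± 0.13 in Libramed mice did not pass (adjusted p = 0.187). Bhmt2, its neighbour 17758 bases away on chromosome 13, lay between 116 and 148 FPKM in all 12 libraries and was not called. Outside the 47 genes, the sulfur dioxygenase Ethe1 fell in both treatments, by 1.02 ± 0.14 and 1.15 ± 0.14 (adjusted p = 0.0101 and 0.00481).

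Glycine and serine genes went 2 ways. In vehicle mice 0 of 7 rose and 3 fell (5.62% and 4.78% of all genes). In Libramed mice 1 rose and 3 fell (7.00% and 5.36% of all genes), the genes that fell being Agxt, Gldc and Amt in both.

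Agxt, the peroxisomal enzyme that turns glyoxylate into glycine, is at chr1:93135240-93145421 (mm10, plus strand) and is the gene of the first promoter shown. It read 325, 271 and 311 FPKM at vehicle ZT0, 166, 183 and 164 at vehicle ZT12, 462, 294 and 584 at Libramed ZT0 and 201, 204 and 240 at Libramed ZT12. Evening values were below morning values in both treatments, and the Libramed evening values were above the vehicle evening values. Agxt fell by 0.82 ± 0.10 in vehicle mice (adjusted p = 0.00737) and by 1.00 ± 0.24 in Libramed mice (adjusted p = 0.0372). Libramed against vehicle gave 0.51 ± 0.24 at ZT0 (adjusted p = 0.589), 0.33 ± 0.09 at ZT12 (adjusted p = 0.729) and 0.42 ± 0.14 over both times (adjusted p = 0.371), the last being the smallest p of the 47 genes in that fit.

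Gldc and Amt are subunits of the mitochondrial glycine cleavage system. Gldc read 46.7, 66.1 and 58.1 FPKM at vehicle ZT0, 33.1, 40.9 and 30.6 at vehicle ZT12, 56.8, 55.5 and 56.1 at Libramed ZT0 and 34.8, 34.7 and 41.2 at Libramed ZT12. Amt read 32.7, 30.2 and 35.8 FPKM at vehicle ZT0, 18.7, 20 and 22.5 at vehicle ZT12, 32.7, 34.7 and 34.8 at Libramed ZT0 and 15.9, 19.2 and 19.2 at Libramed ZT12. In both genes the evening values were below the morning values in each treatment and the treatments overlapped at each time. Gldc fell by 0.69 ± 0.16 in vehicle mice (adjusted p = 0.0406) and by 0.60 ± 0.09 in Libramed mice (adjusted p = 0.00899), and Amt by 0.66 ± 0.10 (adjusted p = 0.0131) and 0.88 ± 0.09 (adjusted p = 0.00339). Gcsh, another protein of the same system, lay between 55.8 and 77.1 FPKM and changed by 0.22 ± 0.10 in vehicle mice (adjusted p = 0.199) and -0.01 ± 0.09 in Libramed mice, neither past the threshold.

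Sds, the serine dehydratase that feeds serine carbon to pyruvate, gave the largest rise in Libramed mice. It read 246, 149 and 182 FPKM at vehicle ZT0, 191, 307 and 216 at vehicle ZT12, 156, 107 and 170 at Libramed ZT0 and 420, 363 and 357 at Libramed ZT12. The vehicle groups overlapped, the Libramed groups were far apart, and the 3 Libramed evening values were the highest of 12. Sds rose 2.67-fold in Libramed mice (log2 change 1.42 ± 0.17, adjusted p = 0.0047), against 0.31 ± 0.23 in vehicle mice (adjusted p = 0.447). The interaction was 1.11 ± 0.32 (adjusted p = 0.522), the largest of the 47 genes, and the difference between treatments was 0.70 ± 0.18 at ZT12 (adjusted p = 0.729) and -0.41 ± 0.23 at ZT0 (adjusted p = 0.644). Sdsl, the related gene 3715 bases away on chromosome 5, pointed the other way with -0.65 ± 0.16 in vehicle (adjusted p = 0.0505) and -0.35 ± 0.23 in Libramed mice, and fell in the fit of both treatments (adjusted p = 0.0283). Shmt1, the cytosolic serine hydroxymethyltransferase, rose in that fit (0.37 ± 0.09, adjusted p = 0.00778), and its mitochondrial counterpart Shmt2, outside the 47 genes, rose in both treatments (0.39 ± 0.07 and 0.33 ± 0.07, adjusted p = 0.0227 and 0.0284). Of 10 further genes tested, Shmt2 among them, 3 rose and 1 fell in vehicle mice (5.62% and 4.78% of all genes). In Libramed mice 3 rose and 0 fell (7.00% and 5.36% of all genes). Sardh and Hoga1 also rose in both, and Psph, the last enzyme of serine synthesis, fell in vehicle mice (-0.84 ± 0.16, adjusted p = 0.0246).

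**Figure D5:**
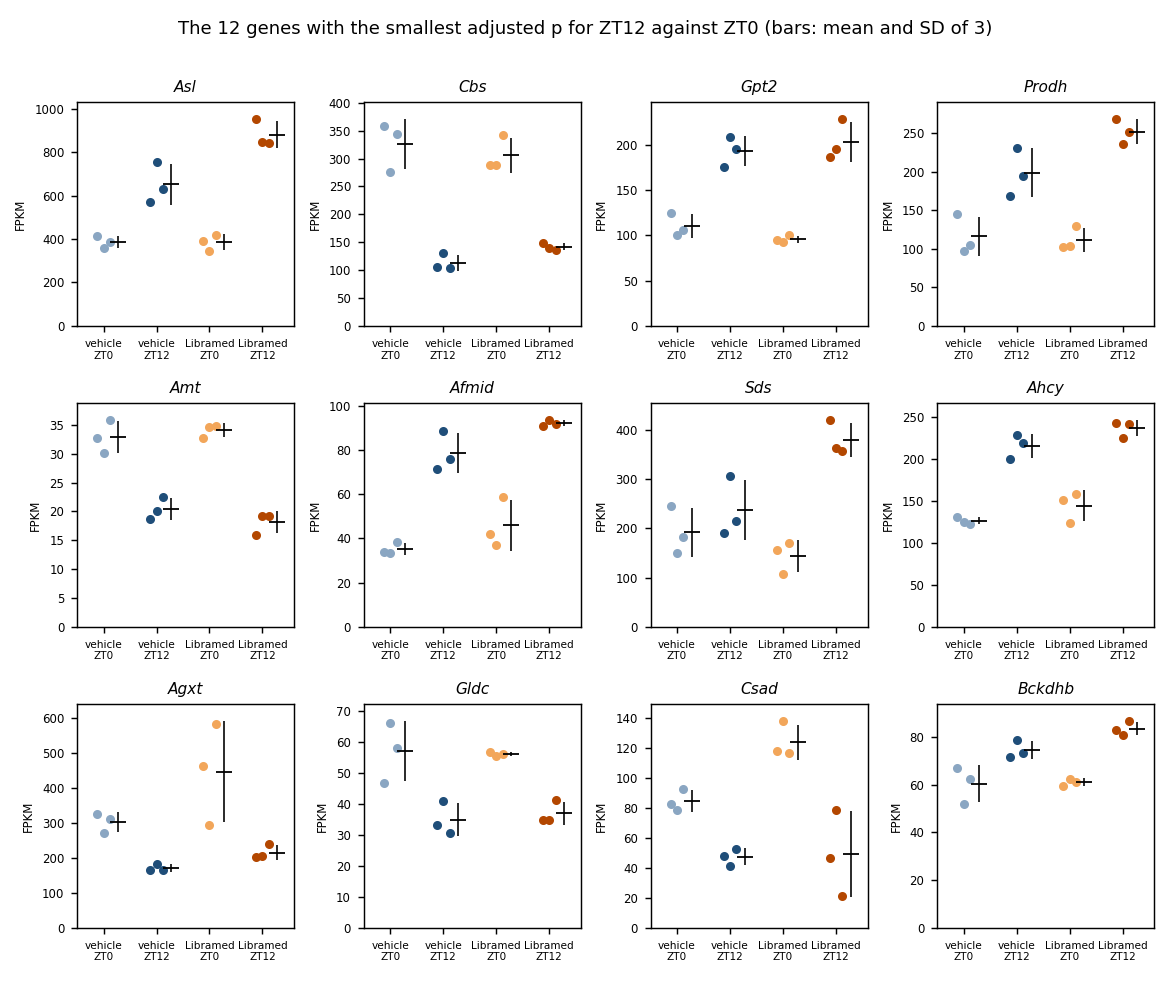
FPKM of the 12 genes with the smallest adjusted p for ZT12 against ZT0, in each library of the 4 groups, with the mean and SD of 3 mice; each axis starts at 0. Asl, Gpt2, Prodh, Afmid, Sds, Ahcy and Bckdhb are higher at ZT12 and Cbs, Amt, Agxt, Gldc and Csad lower, Sds in vehicle mice with overlap.

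Transaminases of alanine were higher in the evening, and those of aspartate were less clear. Gpt2, the mitochondrial alanine transaminase, read 125, 100 and 106 FPKM at vehicle ZT0, 175, 209 and 195 at vehicle ZT12, 94.3, 92.6 and 100 at Libramed ZT0 and 186, 195 and 228 at Libramed ZT12. Evening and morning values were far apart in both treatments, and the treatments overlapped at ZT12. Gpt2 rose 1.75-fold in vehicle mice (log2 change 0.81 ± 0.12, adjusted p = 0.0105) and 2.1-fold in Libramed mice (1.07 ± 0.10, adjusted p = 0.00203). Gpt, the cytosolic form, read 279, 214 and 225 FPKM at vehicle ZT0, 299, 353 and 333 at vehicle ZT12, 265, 215 and 266 at Libramed ZT0 and 363, 413 and 420 at Libramed ZT12. Its evening values were above its morning values in each treatment and above the vehicle evening values with Libramed. Gpt rose in Libramed mice (0.68 ± 0.11, adjusted p = 0.0125), the vehicle change being 0.46 ± 0.13 (adjusted p = 0.0658), and differed between treatments at ZT12 by 0.28 ± 0.09 (adjusted p = 0.729).

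Gls2, the liver glutaminase that frees ammonia for Cps1, read 153, 119 and 137 FPKM at vehicle ZT0, 133, 188 and 119 at vehicle ZT12, 110, 96 and 153 at Libramed ZT0 and 227, 167 and 169 at Libramed ZT12. The Libramed morning and evening values were apart and the vehicle ones overlapped, and no adjusted p was under 0.05 (0.66 ± 0.20 in Libramed mice, adjusted p = 0.0726). Got1, the cytosolic aspartate transaminase, varied widely within groups, from 70.3 to 135 FPKM at vehicle ZT0 and from 111 to 213 FPKM at Libramed ZT12, and was not called. Got2, the mitochondrial form, rose in the fit of both treatments (0.19 ± 0.05, adjusted p = 0.00752). Among 8 further genes tested, 1 rose in Libramed mice (7.00% of all genes) and 0 in vehicle mice (5.62% of all genes). This was the glutamine transporter Slc38a3, with 0.76 ± 0.10 in Libramed mice (adjusted p = 0.00524) and 0.50 ± 0.17 in vehicle mice (adjusted p = 0.107).

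Prodh, which starts proline breakdown in the mitochondrion, is at chr16:18060357-18090203 (mm10, minus strand) and was among the strongest risers. It read 145, 97.4 and 105 FPKM at vehicle ZT0, 169, 231 and 195 at vehicle ZT12, 102, 103 and 129 at Libramed ZT0 and 268, 236 and 252 at Libramed ZT12. Morning and evening did not overlap in either treatment, and the Libramed evening values were all above the vehicle evening values. Prodh rose 1.72-fold in vehicle mice (log2 change 0.78 ± 0.18, adjusted p = 0.04) and 2.26-fold in Libramed mice (1.18 ± 0.11, adjusted p = 0.00235), and the difference between treatments at ZT12 was 0.35 ± 0.12 (adjusted p = 0.729). Aldh4a1, the next enzyme, rose in the fit of both treatments (0.23 ± 0.08, adjusted p = 0.0399), and Prodh2, which breaks down hydroxyproline, rose in Libramed mice (0.38 ± 0.07, adjusted p = 0.0215).

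All 4 genes of branched-chain breakdown were higher in the evening in the fit of both treatments (15.9% of all genes were), by small amounts. Bckdha, a subunit of the branched-chain ketoacid dehydrogenase, read 264, 253 and 229 FPKM at vehicle ZT0, 275, 275 and 287 at vehicle ZT12, 251, 215 and 243 at Libramed ZT0 and 278, 248 and 278 at Libramed ZT12. Morning and evening were apart in vehicle mice and overlapped in Libramed mice, with a rise of 0.17 ± 0.06 in that fit (adjusted p = 0.042). Bckdhb, the partner subunit, read 67, 52 and 62.3 FPKM at vehicle ZT0, 71.7, 78.6 and 73.2 at vehicle ZT12, 59.2, 62.4 and 61.1 at Libramed ZT0 and 83, 80.8 and 86.6 at Libramed ZT12. Morning and evening were apart in both treatments, and Bckdhb rose in Libramed mice (0.45 ± 0.07, adjusted p = 0.011), with 0.30 ± 0.11 in vehicle mice (adjusted p = 0.129). Dbt, the core subunit, and Ivd, which acts on leucine carbon, rose in the fit of both treatments by 0.39 ± 0.07 and 0.30 ± 0.07 (adjusted p = 0.00161 and 0.0057). Of 16 further genes, 2 rose and 1 fell in vehicle mice (5.62% and 4.78% of all genes), Auh (0.65 ± 0.07, adjusted p = 0.00569) and Hibch (0.65 ± 0.11, adjusted p = 0.0168) being higher and the transaminase Bcat2 lower (-0.53 ± 0.12, adjusted p = 0.0432). In Libramed mice, where 7.00% of all genes rose, Hibch was the 1 gene called (0.47 ± 0.11, adjusted p = 0.0382).

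Tryptophan genes were split by enzyme. Tdo2, the dioxygenase that opens the tryptophan ring and is a textbook glucocorticoid target, read 679, 805 and 724 FPKM at vehicle ZT0, 830, 738 and 805 at vehicle ZT12, 939, 701 and 803 at Libramed ZT0 and 599, 767 and 943 at Libramed ZT12. Its groups overlapped throughout, with no p under 0.05. Afmid, which acts next, read 34, 33.4 and 38.3 FPKM at vehicle ZT0, 71.3, 88.9 and 76 at vehicle ZT12, 41.9, 37 and 58.9 at Libramed ZT0 and 91.1, 93.6 and 91.8 at Libramed ZT12. All evening values were above all morning values, and the Libramed evening values above the vehicle ones. Afmid rose 2.2-fold in vehicle mice (log2 change 1.13 ± 0.11, adjusted p = 0.00353) and 2.02-fold in Libramed mice (1.02 ± 0.16, adjusted p = 0.0107), and over both times it was higher with Libramed by 0.29 ± 0.10 (adjusted p = 0.384). Kynu, which cleaves kynurenine, read 66.1, 71.5 and 75 FPKM at vehicle ZT0, 46.5, 47.7 and 38.4 at vehicle ZT12, 57.4, 59.5 and 58 at Libramed ZT0 and 51.3, 41.8 and 43.2 at Libramed ZT12. Evening values were lower in both treatments without overlap, and at ZT0 the Libramed values were all below the vehicle values. Kynu fell by 0.67 ± 0.11 in vehicle mice (adjusted p = 0.0141), the Libramed change of -0.36 ± 0.09 missed the threshold (adjusted p = 0.052), and the difference between treatments at ZT0 was -0.28 ± 0.09 (adjusted p = 0.482). Kmo, which hydroxylates kynurenine, rose in the fit of both treatments (0.43 ± 0.10, adjusted p = 0.00592), and Haao, the step before quinolinate, ranged from 446 to 837 FPKM without a call.

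Of the 4 tyrosine genes, none was called within a treatment and 3 rose in the fit of both (15.9% of all genes did). Hpd, which makes homogentisate, read 1665, 1324 and 1511 FPKM at vehicle ZT0, 1490, 1807 and 1833 at vehicle ZT12, 1650, 1445 and 1790 at Libramed ZT0 and 2047, 1916 and 2156 at Libramed ZT12. The Libramed ZT12 values were the highest 3 of 12. Hpd was higher with Libramed at ZT12 by 0.26 ± 0.11 (adjusted p = 0.729) and rose with time in the fit of both treatments (0.26 ± 0.08, adjusted p = 0.0349). Fah and Gstz1, which finish the route, rose in that fit by 0.32 ± 0.06 and 0.21 ± 0.06 (adjusted p = 0.00248 and 0.0161), and Hgd, between them and Hpd, lay between 385 and 548 FPKM without a call. Tat, which lies outside the 47 genes and is the tyrosine transaminase induced by glucocorticoids and glucagon, read 500, 615 and 834 FPKM at vehicle ZT0, 365, 569 and 829 at vehicle ZT12, 373, 411 and 441 at Libramed ZT0 and 1013, 891 and 1397 at Libramed ZT12. The vehicle groups overlapped over a wide range, the Libramed ZT12 values were the highest of 12, and the Libramed ZT0 values lay below those of vehicle ZT0 and within the range of vehicle ZT12. Tat rose by 1.41 ± 0.17 in Libramed mice (adjusted p = 0.0044), against -0.19 ± 0.32 in vehicle mice (adjusted p = 0.748), with an interaction of 1.60 ± 0.39 (adjusted p = 0.519).

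Hal, the first enzyme of histidine breakdown, read 112, 96.6 and 114 FPKM at vehicle ZT0, 97.1, 112 and 90.6 at vehicle ZT12, 119, 94.8 and 146 at Libramed ZT0 and 123, 106 and 119 at Libramed ZT12. Its groups overlapped in every comparison. Uroc1, the second enzyme, read 100, 96 and 97.5 FPKM at vehicle ZT0, 127, 155 and 142 at vehicle ZT12, 107, 100 and 120 at Libramed ZT0 and 166, 154 and 160 at Libramed ZT12. Evening and morning were apart in both treatments, and at ZT0 the Libramed values touched the top of the vehicle values. Uroc1 rose 1.43-fold in vehicle mice (log2 change 0.52 ± 0.09, adjusted p = 0.0206) and 1.46-fold in Libramed mice (0.55 ± 0.09, adjusted p = 0.0122), and over both times it was higher with Libramed by 0.17 ± 0.06 (adjusted p = 0.402). Ftcd, which passes the formimino group to folate, lay between 161 and 257 FPKM, rose with time in the fit of both treatments (0.27 ± 0.07, adjusted p = 0.0171) and was higher with Libramed at ZT12 by 0.24 ± 0.08 (adjusted p = 0.729).

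A wider list of genes of these pathways and of lysine breakdown was counted in the same way. Of 69 further genes listed, 67 were in the table and 59 were tested, and 9 rose and 5 fell in vehicle mice (5.62% and 4.78% of all genes) and 10 rose and 2 fell in Libramed mice (7.00% and 5.36% of all genes). Their median log2 change was 0.07 and 0.11, against 0.13 and 0.25 for the 47 genes and 0.01 over all genes in both treatments. At ZT12, 7 of the 59 were higher with Libramed at an unadjusted p under 0.05 and 0 were lower (3.07% and 3.67% of all genes), and at ZT0 1 was higher and 3 were lower (3.42% and 5.81% of all genes).

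Some of the genes share sequence with a neighbour, which limits how far their values are their own. The labels name an unstranded library kit and the methods a stranded one, so reads of opposite strands may not have been told apart. Afmid also overlaps Gm20708, and Aldh4a1 overlaps Gm21969, on the same strand, where a stranded kit would not part them. Neither neighbour had a value. Afmid overlaps Tk1, a thymidine kinase gene on the other strand whose start is 168 bases from that of Afmid, and Tk1 also rose in both treatments (1.07 ± 0.17 and 1.46 ± 0.23, adjusted p = 0.0149 and 0.00991). By limma, Tk1 was higher with Libramed at ZT12 by 0.42 ± 0.16 (adjusted p = 0.729). Sds overlaps Plbd2, which rose by 0.49 ± 0.11 and 0.45 ± 0.08 (adjusted p = 0.0423 and 0.0135). Gls2 overlaps Spryd4, which rose in Libramed mice (0.34 ± 0.09, adjusted p = 0.047), and Csad overlaps Zfp740, which fell in the fit of both treatments (-0.27 ± 0.08, adjusted p = 0.0202). Shmt1 overlaps Smcr8 and Gstz1 overlaps Pomt2, neither of which was called for time, and Bckdha overlaps B3gnt8, which was not tested at a mean of 0.712 FPKM. Asl starts 43 bases from Crcp on the other strand, with no shared exon, and Crcp rose by 0.51 ± 0.11 in vehicle mice and 0.85 ± 0.10 in Libramed mice (adjusted p = 0.0318 and 0.00399). By limma, Crcp was higher with Libramed at ZT12 by 0.23 ± 0.10 (adjusted p = 0.729). Its interaction was 0.34 ± 0.14 (adjusted p = 0.725). Bhmt2 starts 131 bases from Dmgdh, and neither was called for time. Plbd2, Spryd4, Zfp740, Smcr8, Pomt2 and Dmgdh were not called for treatment at ZT12 or for the interaction. How far the reads of one gene of a pair were counted for the other was not tested.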

How the data were processed

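Liver RNA of 12 mice in 4 groups of 3 was sequenced. The deposited table gives 1 FPKM value per gene and library, made by the authors with TopHat and Cuffnorm on mm10, per the labels; the methods name another aligner, uniquely mapped reads, RPKM and a stranded kit, which leaves strand and read assignment uncertain. The labels do not say whether mice were processed together. Depth is unknown, so no counting interval is given. Of 24138 lines, 289 repeated a symbol, and the line of the highest mean was kept. The 9806 genes whose mean over the 12 libraries reached 1 FPKM were fitted with limma 3.58.1 in R 4.3.3 on log2(FPKM + 1) with an intensity trend and Benjamini-Hochberg adjustment over all of them, in the 6 libraries of each simple comparison and in all 12 for the averaged comparisons and the interaction. Fold changes on this scale understate those of low genes. Calls required an adjusted p under 0.05 for time and an unadjusted p under 0.05 for treatment and interaction. The steps were tested on simulated data. Alternatives were other scalings, pseudocounts, filters, 1 fit of all 12 libraries, a replicate block, a test in the manner of Cyber-T and leaving out each library. Genes were named by call, by smallest p or by pathway role, and the 47 genes and all lists were chosen with earlier results of these data known. Coordinates are those of GENCODE vM21 and sequences those of RefSeq GRCm38.p6.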

Additional observations from a re-analysis of the deposited data

Results flagged for a closer look

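In 12 genes among the 47, the 59 other pathway genes and the 11 regulators tested, the change over the day differed between vehicle and Libramed mice at an unadjusted p under 0.05 of the interaction, and no adjusted p was under 0.05. Over all genes, the interaction was positive at that threshold for 3.82% and negative for 2.80%. The interaction, on the log2 scale, was 0.50 for Arg1, 0.43 for Slc25a15, 1.11 for Sds, 0.45 for Asl, 0.41 for Cbs, 0.37 for Cps1 and -0.39 for Slc25a13 among the 47 genes. Outside them it was 1.60 for Tat, 0.72 for Acmsd, which diverts tryptophan carbon from quinolinate, 0.27 for Glyctk, a glycerate kinase that was named after its values were seen, 0.55 for Klf15 and 0.73 for Cebpb. All but Slc25a13 were positive. For Slc25a15 and Cbs, a positive value means a smaller fall in Libramed mice and not a rise. Nor did the mean of Acmsd rise in Libramed mice, where it was 4.51 FPKM at both times. In vehicle mice it was 5.55 FPKM at ZT0 and 2.94 FPKM at ZT12.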

How the results depend on the processing

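No called log2 change of the 47 genes turned its direction under any alternative. In vehicle mice the 16 genes called for time became 10 with no minimum FPKM and 6 in the manner of Cyber-T, and leaving out 1 library gave 5 to 16. Over all genes, the 1020 calls became 515 of 17066 genes with no minimum FPKM and 564 in the manner of Cyber-T. Leaving out 1 library gave 226 to 869. At ZT0 the 3 genes became 5 under quantile normalization or with all 12 libraries in 1 fit, and 1 to 7 with a library left out. At ZT12 the 13 became 4 in the manner of Cyber-T (281 of 9806 genes), and 7 to 18 with a library left out. Over both times the 7 became 11 under median-ratio scaling or quantile normalization, and 4 to 12 with a library left out. With a library left out, the interaction ranged from 4 to 12, time in Libramed mice from 12 to 16 and time in both treatments from 28 to 30. Under quantile normalization the median change became 0.08 in Libramed mice and 0.09 in both treatments. With the replicate block the counts were 6 for time in vehicle mice, 14 in Libramed mice, 31 in both, 6 and 9 for treatment at ZT0 and ZT12, 8 over both times and 6 for the interaction. Over all genes, the replicate block gave 279, 709 and 2895 for time, in the same order. For treatment it gave 794, 645 and 1020, and for the interaction 699. Whether the replicate numbers pair the mice is not known. Of 18 pairs with the same number, 4 had a correlation of deviations over 0.1, and 3 libraries correlated best with their own number. The correlations ran from -0.279 to 0.341, which with 3 libraries per group cannot decide it. What moved these counts was not tested.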

Other observations

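Of 12 listed regulators of amino acid catabolism, 11 were tested, and 1 rose with time in vehicle mice (5.62% of all genes) and 4 in Libramed mice (7.00% of all genes). At ZT0, 0 were higher and 2 lower with Libramed at an unadjusted p under 0.05 (3.42% and 5.81% of all genes). At ZT12, 0 were higher and 0 lower (3.07% and 3.67% of all genes). Cebpb, a C/EBP factor of fasting and glucagon response, read 81.2, 64.1 and 61.4 FPKM at vehicle ZT0, 154, 81.6 and 125 at vehicle ZT12, 51.6, 49.8 and 45.3 at Libramed ZT0 and 149, 133 and 136 at Libramed ZT12. At ZT0 the Libramed values were all below the vehicle values, and the vehicle ZT12 values were spread widely. It rose by 1.49 ± 0.09 in Libramed mice (adjusted p = 0.00047), the vehicle change being 0.76 ± 0.23 (adjusted p = 0.0902). Klf15, a factor known for inducing genes of amino acid breakdown, read 88.4, 91.9 and 99.5 FPKM at vehicle ZT0, 94.9, 94.1 and 109 at vehicle ZT12, 79.1, 72.4 and 79.8 at Libramed ZT0 and 111, 107 and 148 at Libramed ZT12. The Libramed values of Klf15 were all below the vehicle values at ZT0, and the treatments overlapped at ZT12. Its vehicle groups overlapped and its Libramed groups lay apart, and it rose by 0.64 ± 0.13 in Libramed mice (adjusted p = 0.0253), the vehicle change being 0.09 ± 0.09 (adjusted p = 0.598). Foxo1 rose in both treatments (0.60 ± 0.08 and 0.62 ± 0.15, adjusted p = 0.0102 and 0.0447), and Hnf4a in Libramed mice (0.37 ± 0.07, adjusted p = 0.0221).

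Urea cycle and glutaminase genes are known to be strongest around the portal vein. Of 5 other periportal markers, 3 rose with time in Libramed mice (7.00% of all genes) and 0 in vehicle mice (5.62% of all genes) at an adjusted p under 0.05. These were G6pc, Pck1 and Aldh1b1, while Cyp2f2 and Ctsc were not called. None of the 5 had an unadjusted p under 0.05 for treatment at ZT12 or for the interaction. The gluconeogenic genes G6pc and Pck1 rose by 1.84 ± 0.22 and 1.79 ± 0.24 in Libramed mice (adjusted p = 0.0044 and 0.00638), the vehicle changes being 1.08 ± 0.38 and 0.74 ± 0.40 (adjusted p = 0.124 and 0.279), with interactions of 0.76 ± 0.49 (adjusted p = 0.833) and 1.06 ± 0.51 (adjusted p = 0.755) by limma. Of 7 pericentral markers, 1 rose and 1 fell in vehicle mice (5.62% and 4.78% of all genes), Cyp2e1 with a log2 change of 0.60 ± 0.12 and Oat with -0.48 ± 0.11 (adjusted p = 0.03 and 0.0413). In Libramed mice 1 fell (5.36% of all genes), Lgr5 with -0.62 ± 0.12 (adjusted p = 0.0192).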
